A study of Mus musculus with 16 samples.

Results

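The transcripts of 10 subunits of the Polycomb repressive complexes were followed in mouse embryonic stem cells (ESCs) with and without suppression of the cap methyltransferase activator RAM. The genes were chosen by name and not by a measured value, though with earlier results of these data known. They are Ezh2, Eed and Suz12, which encode the core of Polycomb repressive complex 2 (PRC2), Jarid2 and Mtf2, which encode its accessory subunits, Ring1, Rnf2 and Cbx7 of PRC1, and Pcgf6 and Kdm2b of the variant forms of PRC1. All 10 symbols were matched to a gene identifier among the 46983 genes of the count table, and all 10 were among the 12805 genes with enough reads to be tested.

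The comparisons address whether RAM suppression altered the abundance of these transcripts in the cytoplasm and their representation on polysomes. 46C ESCs, a line of 129Ola origin with GFP at the Sox1 locus, were transfected with RAM siRNA (siRAM) or with a non-targeting control siRNA (Ct) and harvested after 48 hr in the presence of cycloheximide, which arrests ribosomes on mRNA. A portion of each lysate was set aside as cytoplasmic RNA (input), and the remainder was separated on a sucrose gradient, from which fractions 17 to 22 were pooled as polysomes. This gave the groups input Ct, input siRAM, polysome Ct and polysome siRAM with 4 libraries each, 16 in all, from cells cultured with LIF in knockout serum replacement and without any treatment other than the siRNA. The cells came from a single line and the siRNA was transient. Input and polysome libraries of the same siRNA and replicate number are fractions of a shared lysate. The paper's legend for these transfections names a single RAM siRNA, so effects particular to its sequence and loss of RAM cannot be told apart.

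Polycomb complexes keep developmental genes silent. PRC2 places methyl groups on lysine 27 of histone H3 through the catalytic subunit EZH2, which is active only in complex with EED and SUZ12, and accessory subunits such as JARID2 and MTF2 guide the complex to CpG islands. PRC1 ubiquitinates histone H2A through RING1 or RNF2 (also RING1A and RING1B). Canonical PRC1 binds PRC2-marked chromatin through a chromobox protein, in ESCs mainly CBX7, whereas variant PRC1 is recruited by other subunits, among them the CpG-binding KDM2B, or contains PCGF6 and sequence-specific partners. In ESCs, PRC2 is dispensable for self-renewal but needed for orderly differentiation.

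The genes lie on 9 chromosomes of GRCm38. Ring1 (ENSMUSG00000024325) is on the minus strand of chromosome 17 from 34020792 to 34024680, Ezh2 (ENSMUSG00000029687) on the minus strand of chromosome 6 from 47530139 to 47595341, Jarid2 (ENSMUSG00000038518) on the plus strand of chromosome 13 from 44729474 to 44921643, and Suz12 (ENSMUSG00000017548) on the plus strand of chromosome 11 from 79993106 to 80034123. The promoters of Ring1, Jarid2 and Suz12 are shown since these genes gave a fall, a rise and no call in input after RAM suppression. The rise of Jarid2 was called with the replicate number in the fit, and without it only under some other settings. A further reason is that no annotated exon overlaps the bases printed. Each sequence is the 250 bases before a RefSeq start site of GRCm38.p6, 5′ to 3′ on the strand of the gene. Capitals mark an E2F site (TTTCCCGC, TTTGGCGC or TTTCGCGC), a GC box (GGGCGG) or a CCAAT box (CCAAT), each searched on both strands.
Ring1, chr17:34024681-34024930: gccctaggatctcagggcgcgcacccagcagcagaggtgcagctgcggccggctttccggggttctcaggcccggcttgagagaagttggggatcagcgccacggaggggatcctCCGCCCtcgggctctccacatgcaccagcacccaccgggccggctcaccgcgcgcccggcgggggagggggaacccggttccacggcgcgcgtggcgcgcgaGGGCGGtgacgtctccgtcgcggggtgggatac
Jarid2, chr13:44730524-44730773: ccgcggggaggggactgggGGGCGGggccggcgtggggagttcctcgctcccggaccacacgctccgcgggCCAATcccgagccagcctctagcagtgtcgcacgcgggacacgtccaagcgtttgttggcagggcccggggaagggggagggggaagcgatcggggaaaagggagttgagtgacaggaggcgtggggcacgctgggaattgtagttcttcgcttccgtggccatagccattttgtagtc
Suz12, chr11:79992856-79993105: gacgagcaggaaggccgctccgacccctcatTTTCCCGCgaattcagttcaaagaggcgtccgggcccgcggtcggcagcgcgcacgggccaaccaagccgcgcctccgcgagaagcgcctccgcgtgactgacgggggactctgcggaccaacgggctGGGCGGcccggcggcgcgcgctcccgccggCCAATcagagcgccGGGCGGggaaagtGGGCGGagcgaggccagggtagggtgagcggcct
All 3 windows were rich in CpG, with 30 CpG for Ring1, 23 for Jarid2 and 37 for Suz12 beside a median of 6 over 32851 RefSeq promoters of the same length. The GC box, found in 32.7% of all promoters, was present 2 times in that of Ring1, 1 time in that of Jarid2 and 3 times in that of Suz12. A CCAAT box, found in 33.8% of promoters, was in the printed windows of Jarid2 and Suz12. An E2F site, found in 1.53%, was in that of Suz12 and in none of the other windows of the 10 genes. Jarid2 has another start site whose window, chr13:44731021-44731270, is not printed and holds 22 CpG, 1 GC box and no CCAAT box. These letters are a description of the windows and not evidence of binding.

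Libraries held 16647523 to 20147833 counts. Levels are given as CPM, that is, counts brought to a common library size, with the scaling of edgeR's trimmed mean of M values (TMM), and as mean ± SD of 4 libraries. Ramac, which encodes RAM, was examined first. Its level in input was 10.1 to 11.6 CPM in Ct and 2.67 to 3.17 CPM in siRAM, or 28.0% of the Ct mean (log2 fold change -1.84, SE 0.11, adjusted p = 7.24e-06, edgeR). In polysomes Ramac was at 6.61 to 14.6 CPM in Ct and 0.287 to 2.61 CPM in siRAM, so that the siRNA groups did not overlap in either fraction. In polysomes the log2 difference was -2.52 (SE 0.55, adjusted p = 0.128) without a replicate factor and -2.59 (SE 0.24, adjusted p = 2.36e-05) with it. Of 8 ESC markers, 8 passed the filter, with a summed level of 4624 to 4949 CPM in input Ct, 3858 to 4454 CPM in input siRAM, 6005 to 7593 CPM in polysome Ct and 4234 to 7399 CPM in polysome siRAM.

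Markers of other cell types differed between the siRNA groups, and their part in the results on Polycomb genes was not tested. Of 5 primitive endoderm markers, 3 passed the filter and 2, Gata6 and Dab2, rose in input, beside 6.95% of all genes tested. The summed level of the 5 in input was 7.37 to 7.996 CPM in Ct and 10.9 to 11.4 CPM in siRAM. In polysomes the sums were 10.9 to 14.1 CPM in Ct and 14.3 to 18.2 CPM in siRAM. Foxa2 and Gata4, which also define this lineage, stayed under 1 CPM in the input and polysome libraries. Of 8 ESC markers, Dppa5a, Nanog and Esrrb fell in input, by 0.36, 0.29 and 0.25 on the log2 scale, beside 5.94% of all genes tested. With the replicate factor 7 of the 8 were called lower, beside 19.0% of all genes. Of 5 fibroblast markers, 2 passed the filter, and Col3a1 was at 0 in input Ct and polysome Ct. Their summed level was 16.8 to 19.8 CPM in input Ct, 18.5 to 28.5 CPM in input siRAM, 16.8 to 25.4 CPM in polysome Ct and 22.4 to 33.5 CPM in polysome siRAM, and Pdgfra rose in both fractions once the replicate was a factor. Of 5 neural markers, 4 passed the filter, and with the replicate factor Nes rose in input and Pax6 fell. Their summed level was 71.6 to 83.6 CPM in input Ct, 77.7 to 91.9 CPM in input siRAM, 75.7 to 101.7 CPM in polysome Ct and 61.3 to 99.8 CPM in polysome siRAM. In bulk RNA, fewer cells of a type and less RNA per cell cannot be told apart.

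In control input, the 10 transcripts spanned a wide range of levels per kilobase of exon. Mtf2, a Polycomb-like protein that links PRC2 to CpG islands, was the most abundant at 76.3 ± 2.89 CPM per kb (SD, n = 4). Jarid2 (61.2 ± 11.1 CPM per kb), Suz12 (55.5 ± 2.71 CPM per kb) and Eed (51.7 ± 4.54 CPM per kb) followed, and the ranges of Jarid2 and Suz12 and those of Suz12 and Eed overlapped, so the order among them is not resolved. Cbx7 (26.1 ± 1.72 CPM per kb) and Rnf2 (21.5 ± 3.15 CPM per kb) also overlapped. Pcgf6 (17.4 ± 0.817 CPM per kb) and Ezh2 (12.1 ± 0.978 CPM per kb) were lower. Kdm2b (3.95 ± 0.291 CPM per kb) and Ring1 (3.26 ± 0.0713 CPM per kb) were the lowest, and Ring1 rested on 145 to 204 counts per input library. The length used was the union of all annotated exons, so genes with many alternative exons, such as Kdm2b at 10.869 kb, are placed lower than a single isoform would be.

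**Figure D1:**
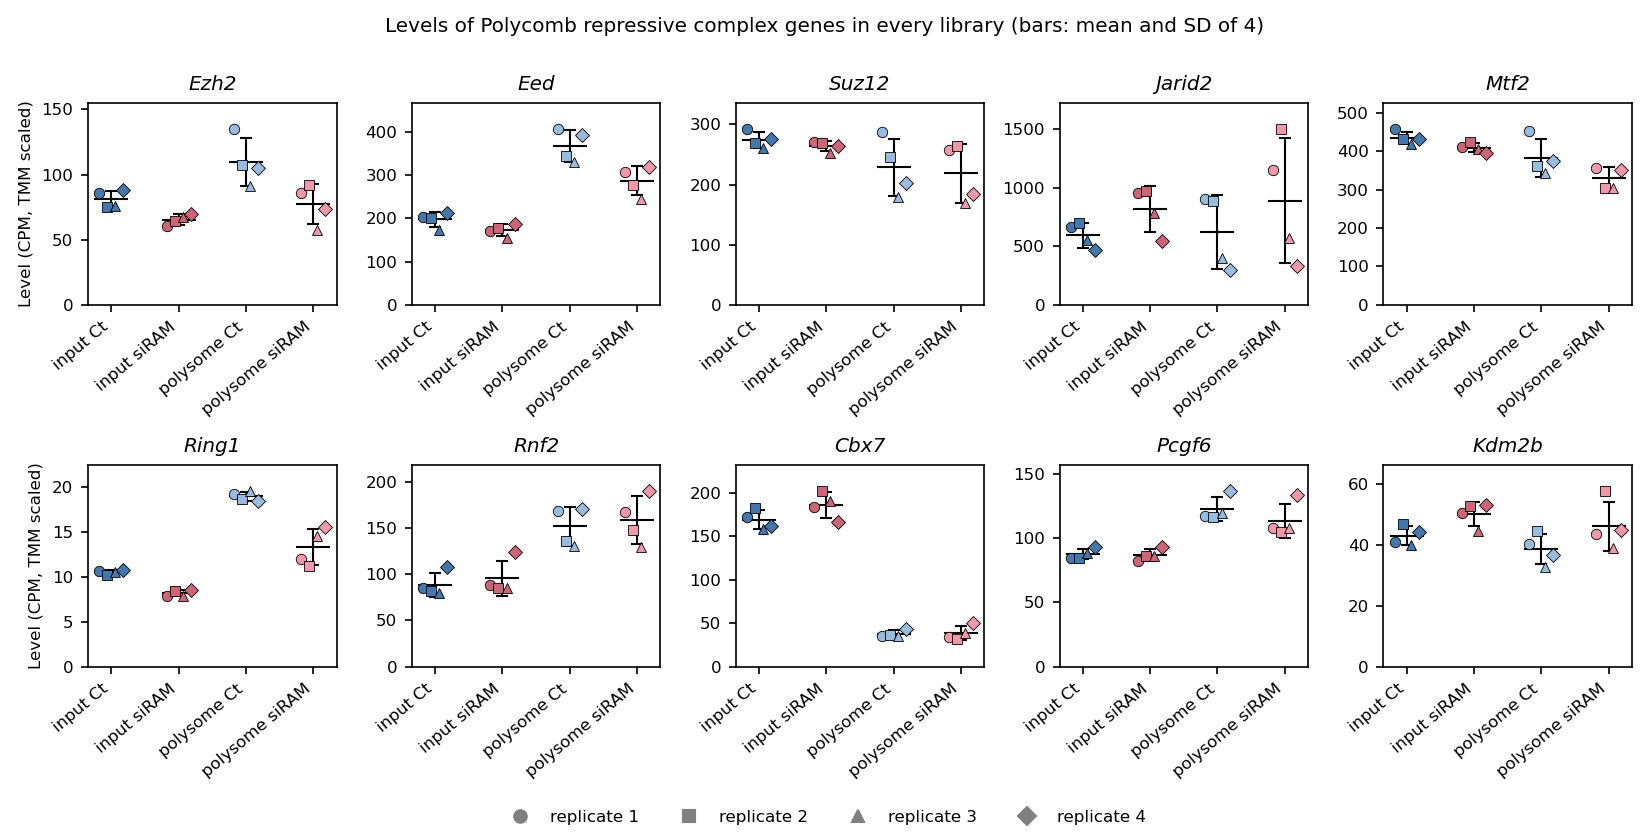
Level of each Polycomb gene in CPM (y axis, from 0, different for each gene) in the 16 libraries by group (x axis), with 1 symbol for each replicate number and bars for the mean and SD of 4 libraries. Ring1 separated siRAM from Ct in both fractions, Cbx7 was far lower in polysomes than in input, and Jarid2 differed more between replicate numbers than between siRNAs in polysomes.

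After RAM suppression, Ezh2 and Ring1 fell in input. Without a replicate factor 2 of 10 members were lower and 0 higher, beside 5.94% of all genes tested lower and 6.95% higher (edgeR, adjusted p under 0.05). DESeq2 and limma-voom also gave 2 lower and 0 higher. Of all 12805 genes, DESeq2 called 911 lower and 1067 higher, and limma-voom 774 and 893. At an unadjusted p under 0.05 there were 3 lower and 2 higher, beside 28.0% of all genes in either direction. Libraries with the same replicate number deviated together, and in the fit that includes the replicate number (replicate block) 3 members, Ezh2, Ring1 and Eed, were lower and 3, Jarid2, Kdm2b and Cbx7, were higher, beside 19.0% and 20.3% of all genes. The median log2 fold change of the 10 was -0.04 without the block, beside 0.00 over all genes tested. Members thus changed in both directions with the block, the largest rise being 1.35-fold (Jarid2), and the counts of 3 are too small to be set against the shares of all genes.

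Of the PRC2 core, Ezh2 fell in input, Eed fell there with the block and Suz12 was not called. Ezh2, which encodes the methyltransferase, stood at 85.6, 75.1, 75.9 and 87.8 CPM in the input Ct libraries of replicates 1 to 4 and at 60.4, 64.1, 67.2 and 69.7 CPM in input siRAM. Every siRAM value was below every Ct value. The log2 fold change was -0.31 (SE 0.08, adjusted p = 0.0183 without and 6.56e-05 with the replicate block, edgeR), and siRAM was lower in 4 of 4 same-numbered pairs. In polysomes Ezh2 was at 134.9, 107.4, 90.9 and 104.8 CPM in Ct and at 85.7, 92.2, 57.1 and 73.6 CPM in siRAM. Here the groups overlapped only between the highest siRAM and the lowest Ct value, and siRAM was again lower in 4 of 4 pairs. The log2 fold change in polysomes was -0.46 (SE 0.18, adjusted p = 0.458) without the block and -0.47 (SE 0.11, adjusted p = 0.012) with it.

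Eed, whose product binds methylated lysine 27 of histone H3 and stimulates EZH2, was lower in siRAM in each same-numbered pair of both fractions. Its input values were 203.4, 201.0, 173.1 and 213.7 CPM in Ct and 169.7, 178.1, 155.3 and 188.1 CPM in siRAM. These ranges overlapped, though Eed passed the test with the block. The difference was -0.20 on the log2 scale (SE 0.08, adjusted p = 0.146) without the block and -0.20 (SE 0.04, adjusted p = 0.000874) with it. In polysomes Eed was at 407.4, 344.4, 330.7 and 393.5 CPM in Ct and at 307.9, 276.7, 244.1 and 319.1 CPM in siRAM, groups that did not overlap under TMM scaling. Its log2 fold change there was -0.32 with or without the block, with an adjusted p of 0.589 and, with the block, 0.0664, so it was not called.

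Suz12, the scaffold on which the complex assembles, gave no call in either fraction. Its input level was 260.9 to 292.3 CPM in Ct and 252.9 to 270.6 CPM in siRAM, and the log2 fold change of -0.06 had a 95% confidence interval of -0.20 to 0.09. In polysomes it was at 286.7, 246.4, 179.7 and 201.8 CPM in Ct and at 256.9, 263.7, 168.8 and 184.7 CPM in siRAM. Replicates 1 and 2 were above replicates 3 and 4 under both siRNAs. The fitted value was -0.02 on the log2 scale with or without the block, with an interval of -0.46 to 0.43 without it and of -0.26 to 0.21 with it.

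Of the accessory subunits, Jarid2 was higher after RAM suppression. Jarid2, a DNA-binding relative of the histone demethylases that lacks their activity, was at 660.2, 702.1, 552.0 and 464.7 CPM in input Ct and at 954.2, 970.9, 786.9 and 547.6 CPM in input siRAM. The ranges overlapped because replicate 4 was low under both siRNAs, and siRAM was higher in 4 of 4 same-numbered pairs. Its log2 fold change was 0.45 (SE 0.17, adjusted p = 0.11) without the block and 0.44 (SE 0.05, adjusted p = 6.18e-07) with it, or 1.35-fold. Without the block, it was called with input siRAM replicate 4 left out (0.60, adjusted p = 0.00692) and with no filter on low counts (0.43, adjusted p = 0.00467), but not with any of the other 7 libraries left out (adjusted p = 0.107 to 0.278) or in the fit of all 16 libraries (0.847). With the block it remained between 0.40 and 0.50 when any replicate number was left out.

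In polysomes, Jarid2 showed the largest spread of the 10 genes. It stood at 905.3, 884.8, 396.9 and 298.7 CPM in Ct and at 1148, 1502, 571.9 and 326.4 CPM in siRAM. Replicates 1 and 2 were well above replicates 3 and 4 under both siRNAs, and siRAM exceeded Ct in every pair. The log2 fold change was 0.56 (SE 0.49, adjusted p = 0.895) without the block and 0.49 (SE 0.13, adjusted p = 0.0184) with it. With the block, the value was 0.58 (adjusted p = 0.311) within replicates 1 and 2 alone and 0.38 (adjusted p = 0.000909) within replicates 3 and 4. Mtf2, the other accessory subunit, gave no call, with 418.6 to 457.8 CPM in input Ct and 396.5 to 424.5 CPM in input siRAM. Its log2 fold change was -0.09 in input (95% confidence interval -0.24 to 0.06) and -0.16 in polysomes (-0.50 to 0.17).

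Within PRC1, Ring1, an E3 ligase subunit, fell in input. It stood at 10.7, 10.2, 10.6 and 10.8 CPM in input Ct and at 7.92, 8.41, 7.89 and 8.60 CPM in input siRAM. The groups did not overlap, and the spread within each was small. Its log2 fold change was -0.37 (SE 0.09, adjusted p = 0.0206 without and 0.00263 with the block). In polysomes Ring1 was at 19.3, 18.7, 19.6 and 18.5 CPM in Ct and at 12.0, 11.2, 14.6 and 15.5 CPM in siRAM, again without overlap. Replicates 1 and 2 of siRAM were the lowest. The polysome log2 fold change was -0.46 (SE 0.17, adjusted p = 0.423) without the block and -0.47 (SE 0.12, adjusted p = 0.0182) with it. When all 16 libraries shared 1 estimate of the spread, Ring1 was called in polysomes (adjusted p = 0.0185) but not in input (adjusted p = 0.157).

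Rnf2, the ligase subunit that carries most of the activity in ESCs, was not called. Its input level was 85.7, 81.8, 79.6 and 107.8 CPM in Ct and 88.01, 85.5, 85.6 and 124.2 CPM in siRAM. Replicate 4 was the highest under both siRNAs. The log2 fold change was 0.11 in input (95% confidence interval -0.17 to 0.39) and 0.11 in polysomes (-0.26 to 0.49). Cbx7, the chromobox reader that ties canonical PRC1 to PRC2-marked chromatin, was at 158.2 to 182.9 CPM in input Ct and 165.9 to 201.8 CPM in input siRAM. Its log2 fold change of 0.13 had an adjusted p of 0.318 without the block and of 0.0263 with it (SE 0.05), a call that was lost when replicate 1, 2 or 3 was left out. In polysomes the value was 0.10 (95% confidence interval -0.32 to 0.51).

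Of the variant PRC1 subunits, Kdm2b rose with the block and Pcgf6 was not called. Kdm2b, whose CXXC domain binds unmethylated CpG, was at 40.9, 46.9, 39.9 and 44.1 CPM in input Ct and at 50.5, 52.5, 44.5 and 53.0 CPM in input siRAM. The groups overlapped by replicate 3 of siRAM, and all 4 pairs were higher in siRAM. The log2 fold change was 0.22 (SE 0.08, adjusted p = 0.0882) without the block and 0.22 (SE 0.05, adjusted p = 0.00139) with it. Without the block, it was called with input siRAM replicate 3 left out (0.27, adjusted p = 0.0498) but not with any of the other 7 libraries left out (adjusted p = 0.0846 to 0.219) or in the fit of all 16 libraries (0.619). In polysomes it was 0.30 (SE 0.16, adjusted p = 0.662) and, with the block, 0.30 (SE 0.11, adjusted p = 0.0702), which was not called. Exons of Kdm2b overlap those of Gm44574 on the same strand and of Rnf34 and A930024E05Rik on the opposite strand. Exons on the opposite strand also overlap Ezh2 (Gm26625), Eed (E230029C05Rik), Suz12 (Gm26563), Mtf2 (Tmed5) and Rnf2 (Trmt1l). How reads in these overlaps were counted depends on the counting mode and strand setting, which are not given in the sources used here. Pcgf6, which defines the variant complex at germline genes, was at 84.2 to 93.0 CPM in input Ct and 82.2 to 92.7 CPM in input siRAM, with a log2 fold change of -0.01 (95% confidence interval -0.16 to 0.13).

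**Figure D2:**
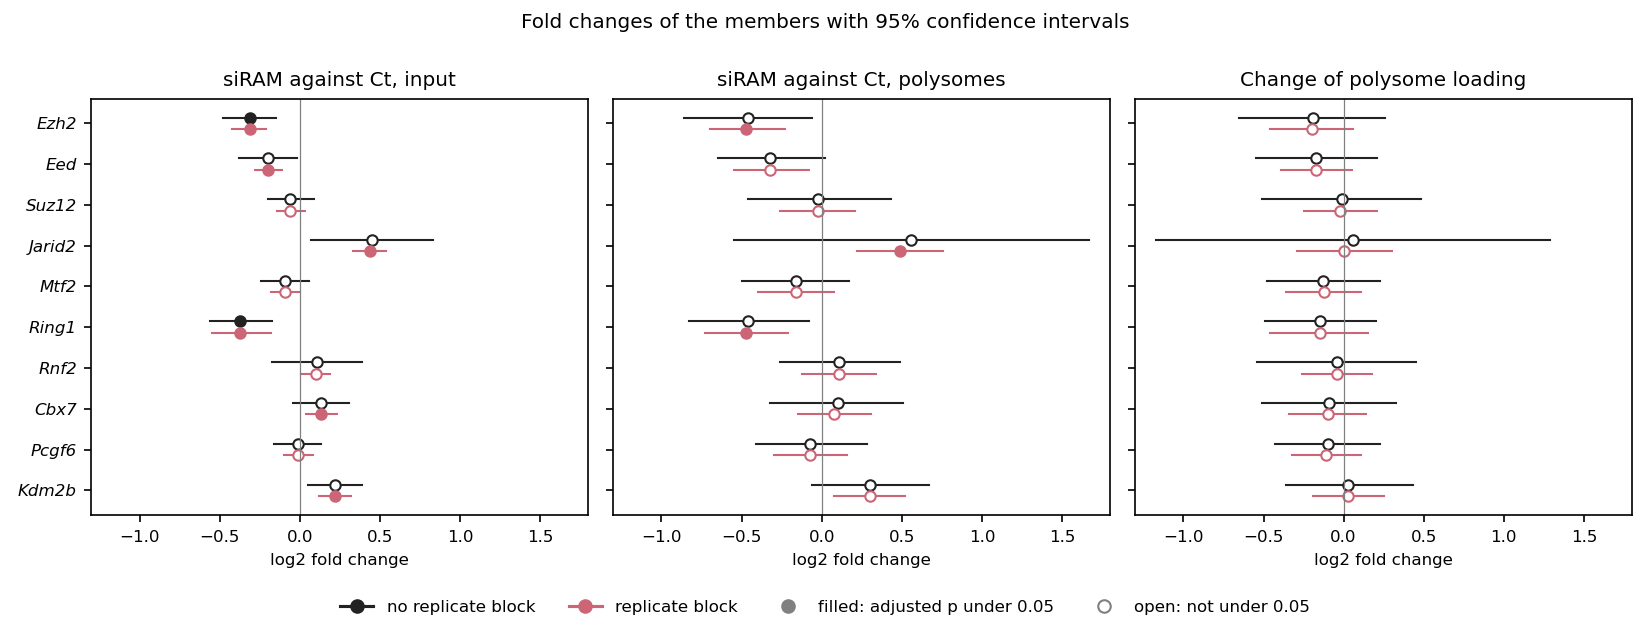
Log2 fold change (x axis) of the 10 genes for siRAM against Ct in input, in polysomes, and for the difference between both (change of polysome loading), without (black) and with (red) the replicate block. Points are the fitted values, lines the 95% confidence intervals, and filled points have an adjusted p under 0.05, as for Ezh2 (-0.31) and Ring1 (-0.37) in input under both fits.

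In polysomes 0 of 10 members were called without the block by edgeR, DESeq2 or limma-voom. Of all genes tested, edgeR called 0.0234% lower and 0% higher. Of the same 12805 genes, limma-voom called 3 lower and 0 higher, and DESeq2 144 lower and 156 higher. At an unadjusted p under 0.05 there were 2 lower (Ezh2 and Ring1) and 0 higher in edgeR, beside 9.00% of all genes in either direction, 2 lower in limma-voom and 3 lower in DESeq2. With the block 2 members were lower and 1, Jarid2, was higher, beside 4.97% and 9.68% of all genes tested. The 3 members called in polysomes with the block were among the 6 called in input with it, each in the direction it had there. The counts depended on the replicates included. With the block and both libraries of replicate 2 left out there were 3 lower and 2 higher, Eed and Kdm2b being added. Without replicate 4 only Ring1 and Jarid2 were called, without replicate 3 only Ring1, and without replicate 1 none was. The calls over all 12805 genes moved as well. With the block, 636 were lower and 1239 higher with every replicate, and 1827 and 2731 without replicate 2. They were 307 and 611 without replicate 4, 409 and 788 without replicate 3, and 265 and 541 without replicate 1.

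Members whose siRNA groups did not overlap were also counted, from the same values and without a model. In input the siRAM values of 2 of 10 members (Ezh2 and Ring1) were all below the Ct values and those of 0 members all above, beside 8.62% and 9.39% of all genes tested. In polysomes 2 members (Eed and Ring1) were wholly lower and 0 wholly higher, beside 4.38% and 2.18% of all genes. Scaled by library size only, the count in polysomes was also 2, but Ezh2 took the place of Eed. Ring1 was the only member separated in both fractions under both scalings.

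The members spanned a wide range of polysome levels relative to input. In Ct, 5 of 10 members (Eed, Ring1, Rnf2, Pcgf6 and Ezh2) were higher in polysomes than in input and 1 (Cbx7) was lower, beside 33.1% and 34.3% of all genes tested. With the block 5 were higher and 2 lower, Suz12 being added, beside 35.1% and 37.2% of all genes. These values are relative to the average transcript, since each library was scaled to the same total. The median log2 difference of the 10 was 0.21, beside 0.00 over all genes tested.

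Cbx7 had the lowest polysome level relative to input among the 10. It was at 172.7, 182.9, 158.2 and 162.0 CPM in input Ct and at 34.8, 35.9, 35.5 and 43.8 CPM in polysome Ct. The polysome level was 22.2% of the input level, a log2 difference of -2.20 (SE 0.13, adjusted p = 1.63e-07, edgeR), and 3.08% of all genes tested had a lower value. Under siRAM the ratio of polysome to input in the 4 replicates was 0.186, 0.16, 0.203 and 0.3, beside 0.201, 0.196, 0.225 and 0.27 in Ct. Replicate 4 had the highest ratio under both siRNAs. Exons of Apobec3 on the opposite strand overlap 100 bases of Cbx7, and the strand setting of the counting is not given in the sources used here.

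Eed, Ring1 and Rnf2 had the highest polysome levels relative to input. For Eed, the ratio of polysome to input was 2.00, 1.71, 1.91 and 1.84 in the replicates of Ct, with a log2 difference of 0.86 (SE 0.12, adjusted p = 7.85e-05). Ring1 followed with 1.8, 1.83, 1.85 and 1.72 (0.81, SE 0.11, adjusted p = 4.16e-05), and Rnf2 with 1.97, 1.67, 1.64 and 1.59 (0.74, SE 0.14, adjusted p = 0.000678). These ranges overlapped, so the 3 genes are not ordered by these data. Pcgf6 had a log2 difference of 0.45 (SE 0.11, adjusted p = 0.0031). Ezh2 had one of 0.40 (SE 0.13, adjusted p = 0.0178), which was no longer called with library-size scaling (adjusted p = 0.0588), without input Ct replicate 2 or 3 (0.0597 and 0.0522) or without polysome Ct replicate 1 (0.0611).

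The remaining members had log2 differences between -0.30 and 0.02. Suz12 had a log2 difference of -0.30 (SE 0.14, adjusted p = 0.0822) without the block and -0.32 (adjusted p = 0.0315) with it. Mtf2 (-0.22, adjusted p = 0.116) and Kdm2b (-0.19, adjusted p = 0.177) were not called. With library-size scaling Suz12 (-0.39, adjusted p = 0.0314) and Mtf2 (-0.31, adjusted p = 0.0388) were called lower without the block. For Jarid2 the estimate was 0.02 with a 95% confidence interval of -0.67 to 0.71, and it changed sign under the block. Its ratio of polysome to input was 1.37 and 1.26 in replicates 1 and 2 of Ct and 0.719 and 0.643 in replicates 3 and 4, and under siRAM 1.20, 1.55, 0.727 and 0.596. The pair of replicates 1 and 2 was thus above the input level and the other pair below it under both siRNAs.

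**Figure D3:**
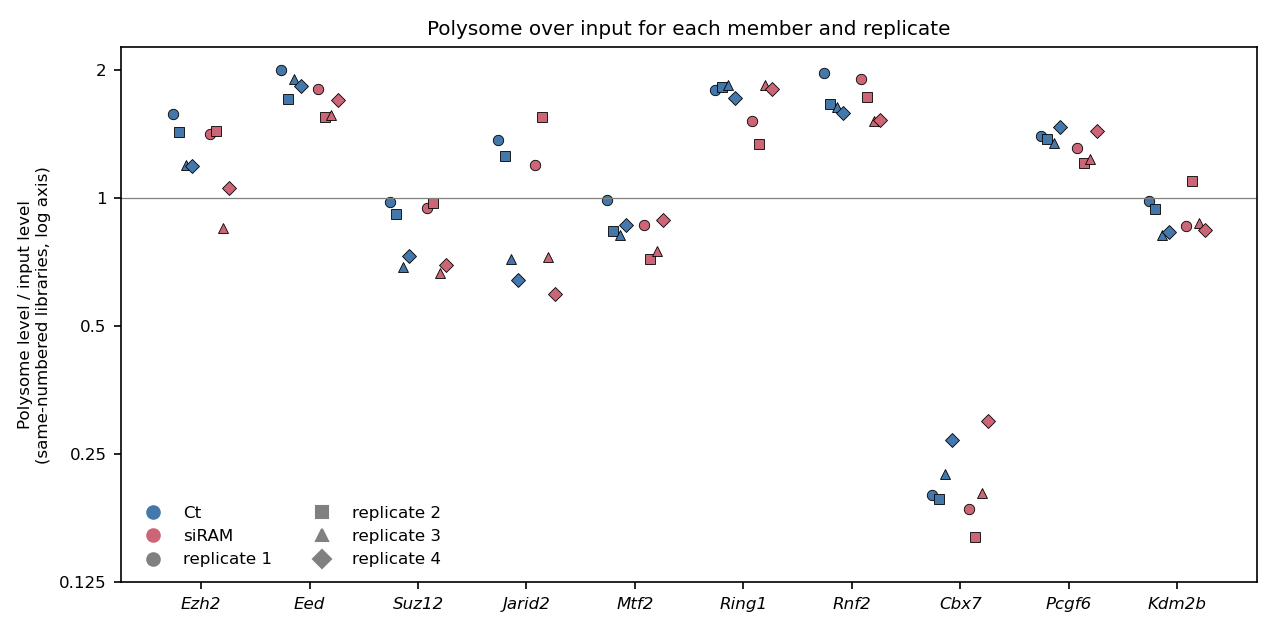
Level in polysomes divided by level in input of the same siRNA and replicate number (y axis, log scale) for each Polycomb gene (x axis), in Ct (blue) and siRAM (red), with 1 symbol for each replicate number. Cbx7 lay between 0.16 and 0.3 in all 8 pairs, whereas Jarid2 was above 1 in replicates 1 and 2 and below 1 in replicates 3 and 4.

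The change of polysome loading by siRAM, that is, the polysome fold change relative to the input fold change, was not called for any of the 10 genes. There were 0 of 10 calls and 0 at an unadjusted p under 0.05 in edgeR, DESeq2 and limma-voom. With the block within each fraction there were also 0 calls. Of all genes tested, edgeR called 0%, limma-voom 0 genes and DESeq2 1 gene. The share was 0.781% at the unadjusted threshold in edgeR and 0.0156% of calls with the block within each fraction. The estimates ran from -0.19 for Ezh2 (95% confidence interval -0.65 to 0.26) to 0.06 for Jarid2 (-1.17 to 1.29). With the block within each fraction the intervals narrowed, to -0.46 to 0.06 for Ezh2, -0.39 to 0.05 for Eed, -0.46 to 0.15 for Ring1 and -0.29 to 0.30 for Jarid2. Changes of loading within these bounds cannot be told from none at this number of libraries. A fit with a block for each lysate, which pairs its input and polysome libraries, also gave 0 calls among the 10 and 0 among all genes tested. Each library was scaled to the same total, so a change of loading shared by all transcripts is not seen in these values. The paper reported a lower ratio of polysomes to monosomes after RAM suppression, from the RNA of gradient fractions.

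The balance between members and their paralogs was then described per kilobase of exon, without a test. Ezh2 made up 80.2% ± 1.35 (SD, n = 4) of the summed Ezh1 and Ezh2 level in input Ct and 78.1% ± 0.769 in input siRAM, and 86.2% ± 2.23 and 83.0% ± 2.96 in polysomes. Ring1 made up 13.3% ± 1.39 of the Ring1 and Rnf2 level in input Ct and 10.0% ± 1.32 in input siRAM. In polysomes the Ring1 share was 13.9% ± 1.83 in Ct and 9.78% ± 1.89 in siRAM. The Ring1 share in input was between 11.3% and 14.5% in Ct and between 8.10% and 11.1% in siRAM, groups that did not overlap, and Rnf2 was the main transcript of the pair in every library. Mtf2 supplied 95.2% ± 0.481 of the Polycomb-like family (Mtf2, Phf1 and Phf19) in input Ct and 95.3% ± 0.425 in input siRAM.

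Among the Pcgf genes, each of which defines a form of PRC1, Pcgf6 was the main transcript. Its share was 39.4% ± 1.23 in input Ct and 57.8% ± 1.10 in polysome Ct, whereas that of Bmi1 (also Pcgf4) was 23.4% ± 1.74 and 13.6% ± 3.03 and that of Pcgf3 15.6% ± 0.334 and 4.32% ± 0.551. Within the PRC2 core, Eed was 43.3% ± 1.61 of the summed level of Ezh2, Eed and Suz12 in input Ct and 60.8% ± 3.65 in polysome Ct, Suz12 46.6% ± 1.52 and 28.9% ± 3.24, and Ezh2 10.2% ± 0.450 and 10.3% ± 0.488.

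**Figure D4:**
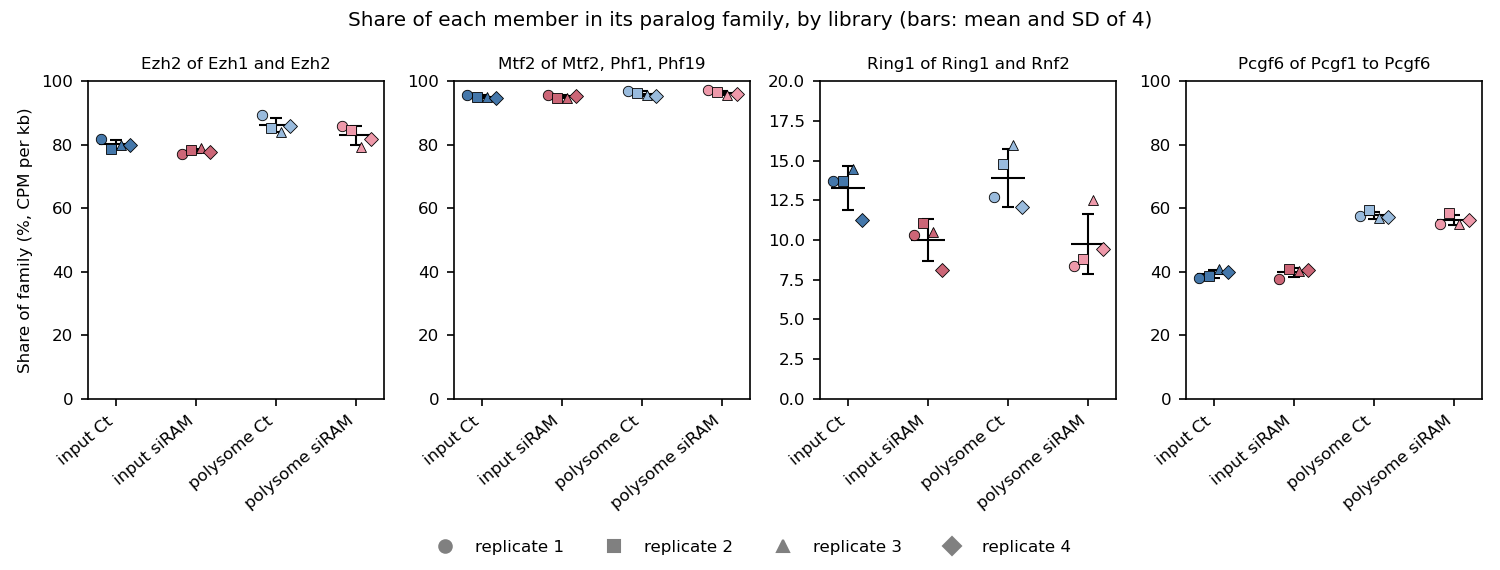
Share of each member in its paralog family in percent of the summed CPM per kb (y axis, 0 to 100 and 0 to 20 for Ring1) in the 16 libraries by group (x axis), with bars for the mean and SD of 4 libraries. The Ring1 share was lower in siRAM than in Ct in input, and the Pcgf6 share was higher in polysomes than in input in Ct (57.8% beside 39.4%).

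Other genes of the pathway were taken from lists by name, of PRC2, of canonical and variant PRC1, of enzymes that remove Polycomb marks with their partners, and of developmental targets. Of 10 other PRC2 subunits, all tested, 0 were lower and 2 higher in input without the block, and 2 were lower and 2 higher with it. Of all genes tested, 5.94% were lower and 6.95% higher in input without the block, and 19.0% and 20.3% with it. These shares stand beside the input counts of each list. The largest change was that of Ezhip (AU022751 in the annotation), an inhibitor of EZH2, which stood at 8.99 ± 0.506 CPM in input Ct and 17.1 ± 2.01 CPM in input siRAM (log2 fold change 0.93, SE 0.10, adjusted p = 0.000263). In polysomes Ezhip was at 16.9 ± 1.68 and 26.8 ± 3.29 CPM (0.72, SE 0.15, adjusted p = 0.114 without and 0.00157 with the block). Rbbp7, a histone chaperone shared with other complexes, rose by 0.34 in input (adjusted p = 0.0376). With the block the Polycomb-like Phf19 (-0.36, adjusted p = 0.00198) and the cofactor Aebp2 (-0.16, adjusted p = 0.00895) fell in input, and in polysomes Rbbp7 rose (0.46, adjusted p = 0.0179) and Phf19 fell (-0.51, adjusted p = 0.0198). The median log2 fold change of the list in input was -0.07.

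Of 11 other canonical PRC1 subunits, 10 were tested and 0 were called in input without the block by edgeR, DESeq2 or limma-voom, with 0 at an unadjusted p under 0.05 in each, while with the block Cbx6 fell (-0.12, adjusted p = 0.0434) and Scml2 rose (0.19, adjusted p = 0.00274). Of 25 other variant PRC1 subunits, all tested, 4 were lower and 1 higher in input without the block, beside 5.94% and 6.95% of all genes. With the block 8 were lower and 2 higher, beside 19.0% and 20.3%. The median without the block was -0.09. The falls included the casein kinase subunit Csnk2a1 (-0.34, adjusted p = 0.0102), Pcgf3 (-0.30, adjusted p = 0.00828) and its partner Dcaf7 (-0.30, adjusted p = 0.00852). Yaf2, which with its relative Rybp links the ligase to variant complexes, rose (0.37, adjusted p = 0.0448), and E2f6 of the Pcgf6 complex rose with the block (0.24, adjusted p = 0.00211). Among these, Csnk2a1 (-0.55, adjusted p = 0.00356) and Yaf2 (0.47, adjusted p = 0.0382) were also called in polysomes with the block. Of 13 erasers and their partners, all tested, Foxk2 fell in input (-0.23, adjusted p = 0.0328) and, with the block, Asxl1 of the H2A deubiquitinase rose (0.22, adjusted p = 0.000606), and in polysomes with the block Asxl3 rose (0.86, adjusted p = 0.043).

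Most genes of the list of erasers and their partners were lower in polysomes than in input. In Ct, 11 of the 13 were lower and 0 were higher, beside 34.3% and 33.1% of all genes tested, with a median of -1.14. The lowest were the partners Ogt (-1.98, SE 0.28) and Mbd5 (-1.96, SE 0.14). Of the enzymes that remove the marks, Bap1 and Kdm6a were called lower, and Kdm6b and Usp16 were not called. Of the other canonical PRC1 subunits 5 of 10 were lower and 0 higher, led by Phc3 (-2.27, SE 0.26) and Cbx6 (-1.62, SE 0.23). Of the variant PRC1 subunits 9 of 25 were lower, led by Pcgf3 (-1.95, SE 0.13) and Mga (-1.80, SE 0.32), and 6 were higher, led by Csnk2b (1.21, SE 0.16) and Hdac2 (0.98, SE 0.12). Of the PRC2 subunits 4 of 10 were lower, led by Lcor (-1.81, SE 0.16) and Phf1 (-1.34, SE 0.16), and 3 were higher, led by Rbbp4 (0.98, SE 0.13) and Rbbp7 (0.88, SE 0.13). The counts of the variant PRC1 and PRC2 lists are near the same shares of all genes.

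Of 32 developmental genes known as Polycomb targets in ESCs, 22 were below the filter and 10 were tested, so the counts concern only the genes with reads. The summed level of the 32 was 34.3 to 41.7 CPM in input Ct and 35.7 to 38.7 CPM in input siRAM, ranges that overlapped. Gata6, an endoderm regulator, rose from 2.83 ± 0.394 to 4.34 ± 0.458 CPM in input (0.61, SE 0.15, adjusted p = 0.0196). With the block Cdkn2a, which encodes cell cycle inhibitors, rose (0.36, adjusted p = 0.0389) and Pax6, a neural regulator, fell from 12.4 ± 1.53 to 8.79 ± 1.98 CPM (-0.51, adjusted p = 0.000287). In polysomes with the block Cdkn2a also rose (0.63, adjusted p = 0.0126) and Pax6 fell (-0.93, adjusted p = 0.000476). Relative to input, 4 of the 10 were higher in polysomes of Ct, led by Cdkn1c (1.02, SE 0.25) and Cdkn2a (0.85, SE 0.22), and 0 were lower. The shares over all genes tested were 33.1% higher and 34.3% lower. Pax3, Dlx5 and Wnt1 had 0 counts in every library of both input groups.

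**Figure D5:**
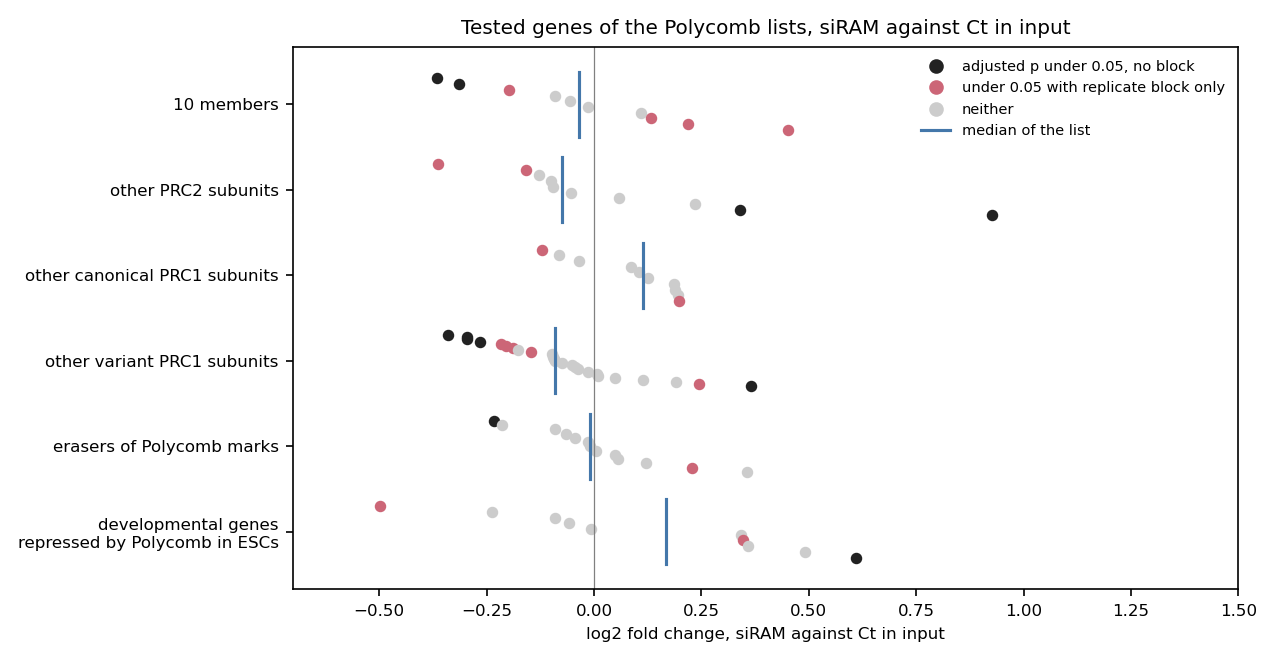
Log2 fold change for siRAM against Ct in input (x axis) of every tested gene of the 6 Polycomb lists (y axis), with black points called without the replicate block, red points called only with it, grey points not called, and blue lines at the list medians. Members range from -0.37 (Ring1) to 0.45 (Jarid2), and the point farthest to the right is Ezhip at 0.93.

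The gene most like each member over the 16 libraries, by Pearson's r of log2 CPM among 9139 genes that averaged 10 CPM or more, is given as a description. The points share libraries, fractions and replicates, and much of each r follows the contrast of input and polysomes. Eed was most like Zc3h14 (r = 0.993), Pcgf6 like Txndc9 (0.991), Rnf2 like Lrrc42 (0.987) and Ring1 like Taco1 (0.982). Cbx7 was most like Rmrp (0.997), the RNA component of RNase MRP. Ezh2 was most like Chordc1 (0.953), Suz12 like Zfp748 (0.966), Jarid2 like Arhgap21 (0.968), Mtf2 like Mynn (0.943) and Kdm2b like Zfp282 (0.939).

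The members were searched for the letters ACTATCA and TGCTCAA on the transcript strand, since earlier results of these data tied the first to lower and the second to higher levels in siRAM. Neither was in an annotated 3′ UTR of any of the 10 genes, while ACTATCA was elsewhere in a transcript of Ezh2 and Mtf2 and TGCTCAA in one of Jarid2, Pcgf6 and Kdm2b. Among 12064 tested genes with an annotated 3′ UTR, ACTATCA was in 6.12%, with a median log2 fold change of -0.12 in input beside 0.00 without it, and TGCTCAA in 9.44%, with 0.06 beside -0.01. The absence from the 3′ UTR holds for called and uncalled members alike, so it does not separate them. The letters were chosen from results of these same data, so the medians above restate that choice and are not separate support. Whether these letters bear on the calls was not tested.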

How the data were processed

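RNA-seq was analysed for 16 libraries of mouse ESCs, 4 each of input Ct, input siRAM, polysome Ct and polysome siRAM, grouped by the labels. The authors depleted ribosomal RNA, made stranded libraries, mapped paired reads to GRCm38/mm10 with STAR 2.5.1b and counted them per gene with htseq-count. The deposited values are raw counts, neither normalized nor filtered. The counting mode, strand setting and annotation release are not given in the sources used here, and 0 columns belonged to other samples.

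Counts were fitted with edgeR 4.0.16 (R 4.3.3) after TMM scaling, using 12805 of 46983 genes with 1 CPM or more in 10 or more of the 16 libraries, which is the study's filter. Quasi-likelihood p-values were adjusted by Benjamini-Hochberg over all of these, at 0.05. A comparison within a fraction or siRNA used its 8 libraries, and polysome loading used all 16 through an interaction term. The study names edgeR and no replicate factor, so none was used at first. Each fit was repeated with the replicate number as a block. For polysome loading this block was set within each fraction, and another fit had a block for each lysate. The numbers were taken to pair libraries, since the study worked on independent occasions and deviations from the group mean correlated within each same-numbered pair (0.400 to 0.797 between siRNAs in input, 0.625 to 0.944 in polysomes, 0.237 to 0.711 between fractions). Pairs of different number reached 0.196, 0.645 and 0.276, so in polysomes the ranges overlapped. Where the block changed a call, both values are printed. The paper's counts of lower and higher genes in input are closer to those with the block than without it. Here 2433 genes were lower and 2595 higher with the block, beside 761 and 890 without it.

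The 10 members, the other gene lists and the tests were chosen with earlier results of these data known. Genes named are all members, Ramac, the nearest gene of each member, and from each list up to 3 called genes of largest change in each direction for siRAM against Ct (2 for polysome against input). Exon lengths, overlaps and 3′ UTRs are from GENCODE M21 on GRCm38, and promoters from RefSeq. Ratios used TMM CPM. Alternatives were DESeq2 1.42.0, limma-voom (limma 3.58.1), RLE and library-size scaling, other filters, pooled fits, each library left out, and replicate pairs. The block without each replicate number, and the block within replicates 1 and 2 or 3 and 4 of polysomes, were added after seeing the data. The fitting steps were tested on simulated data. Some genes are not reported here.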

Additional observations from a re-analysis of the deposited data

Results flagged for a closer look

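Among 44 sets of 4 libraries (10 members and Ramac in 4 groups), 5 had a library whose gap to its nearest neighbour took up more of the range than Dixon's limit for 4 samples allows, where chance gives about 1 in 20. Rnf2 in input siRAM was at 124.2 CPM in replicate 4 and at 85.5 to 88.01 CPM in the others. Cbx7 in polysome Ct was at 43.8 CPM in replicate 4 and at 34.8 to 35.9 CPM in the others. Pcgf6 was at 136.5 CPM in polysome Ct replicate 4, beside 116.6 to 119.6 CPM, and at 133.2 CPM in polysome siRAM replicate 4, beside 104.6 to 107.8 CPM. Ramac was at 2.67 CPM in input siRAM replicate 2 and at 3.11 to 3.17 CPM in the others. No member moved in opposite directions in input and polysomes in all 4 pairs, and none had a called change of polysome loading.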

How the results depend on the processing

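Calls of Ezh2 and Ring1 in input were close to the threshold without the replicate block. The number of members called for siRAM against Ct was 2 in input, 6 with the replicate block and 0 when all 16 libraries shared a fit, and in polysomes 0, 3 and 1, with 0 and 4 with the block in replicates 1 and 2 only and in replicates 3 and 4 only. With a library or replicate left out, the number of members called ran from 0 to 6 in input and from 0 to 5 in polysomes. Over all genes, those lower ran from 426 to 2396 and those higher from 482 to 2571 in input. In polysomes they ran from 0 to 1827 and from 0 to 2731. In input Ezh2 was not called without Ct replicate 1 or 4 or siRAM replicate 1 or 2 (adjusted p = 0.0537 to 0.0694), nor Ring1 without Ct replicate 1 or 4 or siRAM replicate 1 or 3 (0.0515 to 0.0656), all without the block. In the fit of all 16 libraries the adjusted p of Ezh2 in input was 0.464. The cause was not tested. The count for polysome against input in Ct ran from 5 to 7, and loading stayed at 0 calls under the alternatives run.

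Signs changed only for log2 values that were not called. For siRAM against Ct in polysomes, Cbx7 was at -0.06 in replicates 1 and 2 only, with or without the block, and -0.06 to 0.18 with libraries left out, and Suz12 was at 0.0018 in replicates 1 and 2 with the block and -0.11 to 0.08. In input Rnf2 ran from -0.04 to 0.21 and Pcgf6 from -0.04 to 0.01. For polysome against input, Jarid2 was at -0.11 with the block, -0.12 with limma-voom, -0.07 with library-size scaling and -0.28 to 0.25. For loading, Suz12 was at 0.03 with DESeq2 and RLE scaling, 0.06 without a filter, 0.04 with the filter of 4 libraries and -0.12 to 0.12, Rnf2 at 0.03 and 0.01 with these filters and -0.14 to 0.16, Jarid2 -0.32 to 0.33 and Kdm2b -0.09 to 0.12.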
